A study of Homo sapiens with 18 samples.

Results

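COL8A2, COL1A2, SPARC and ACTA2 are 4 genes of the extracellular matrix and of smooth muscle whose transcripts were sequenced in a pair of human acute myeloid leukaemia cell lines. They were taken by symbol from a table of transcript abundances, and all 4 were found among 5069 distinct sets of values, 2324 of them with a symbol that could be settled. The samples were OCI-AML3 cells, which carry the NPM1c+ mutation, and OCI-AML2 cells, which carry normal NPM1. In each line 2 CRISPR-Cas9 clones labelled as caspase-2 knockout were set against the parental cells labelled caspase-2 WT. The 6 groups were OCI-AML3 clone 1, OCI-AML3 clone 2, OCI-AML3 parental, OCI-AML2 clone 1, OCI-AML2 clone 2 and OCI-AML2 parental, with 3 libraries each and no treatment in any of them. A knockout group is the progeny of 1 clone, so its libraries share any trait that clone carried before editing, and nothing in the labels says that the libraries came from separate cultures. SEs and calls below therefore rest on the spread between libraries, which may be technical.

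Collagens are secreted triple-helical proteins that give the matrix its strength, and most are made by fibroblasts, smooth muscle and other mesenchymal cells rather than by blood cells. COL8A2 encodes a chain of the short-chain, network-forming type VIII collagen found in Descemet's membrane of the cornea and in vessel walls, and COL1A2 encodes a chain of the fibrillar type I collagen of bone, skin and tendon. SPARC (osteonectin) is a secreted calcium- and collagen-binding glycoprotein that modulates how cells attach to the matrix and is also stored in platelet granules. ACTA2 encodes smooth muscle alpha-actin, the contractile actin of vessel walls and myofibroblasts, whose transcription in smooth muscle is driven by serum response factor (SRF) bound to CArG boxes in its promoter.

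The genes were chosen by name, with their TPM in all 6 groups of these data in view. The table itself holds genes selected on a difference: 97.4% of its lines had a log2 ratio of at least 0.95 in OCI-AML2 clone 1, in both clones of OCI-AML3, or between the parental lines. Levels and differences between any of the 6 groups are therefore given for these 4 genes as a description, without a test.

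The promoters that RefSeq gives for 3 of the 4 genes (build GRCh38.p14, 250 bases before and 50 after each start, 5′ to 3′ on the gene's strand) are printed to show how differently these genes are built at their starts. Capitals mark GC boxes (GGGCGG on either strand, the site of the factor SP1), TATAA on either strand, and CArG boxes, searched as CC, 6 bases of A or T, and GG, with 1 of the 6 allowed to be G or C. ACTA2 has 2 starts in the table, an upstream one and one nearer the coding region. COL1A2 has no entry there.
COL8A2, chr1:36125173-36125472, minus strand: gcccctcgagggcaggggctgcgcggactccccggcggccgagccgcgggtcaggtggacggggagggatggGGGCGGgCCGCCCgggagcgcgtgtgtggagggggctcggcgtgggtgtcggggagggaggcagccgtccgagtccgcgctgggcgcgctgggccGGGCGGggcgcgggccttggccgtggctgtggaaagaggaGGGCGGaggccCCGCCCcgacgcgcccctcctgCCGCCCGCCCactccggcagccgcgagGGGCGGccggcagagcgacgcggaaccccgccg
SPARC, chr5:151686866-151687165, minus strand: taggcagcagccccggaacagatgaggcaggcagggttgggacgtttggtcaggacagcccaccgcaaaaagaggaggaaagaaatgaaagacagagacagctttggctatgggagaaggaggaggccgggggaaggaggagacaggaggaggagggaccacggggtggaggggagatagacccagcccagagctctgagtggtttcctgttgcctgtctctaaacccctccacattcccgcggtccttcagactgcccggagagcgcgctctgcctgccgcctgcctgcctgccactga
ACTA2 upstream start, chr10:88991288-88991587, minus strand: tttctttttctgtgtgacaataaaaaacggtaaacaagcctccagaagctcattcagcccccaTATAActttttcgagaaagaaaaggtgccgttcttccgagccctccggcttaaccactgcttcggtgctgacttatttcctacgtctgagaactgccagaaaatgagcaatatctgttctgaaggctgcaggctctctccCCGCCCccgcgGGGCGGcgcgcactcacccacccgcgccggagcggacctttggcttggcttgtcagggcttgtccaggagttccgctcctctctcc
ACTA2 downstream start, chr10:88952724-88953023, minus strand: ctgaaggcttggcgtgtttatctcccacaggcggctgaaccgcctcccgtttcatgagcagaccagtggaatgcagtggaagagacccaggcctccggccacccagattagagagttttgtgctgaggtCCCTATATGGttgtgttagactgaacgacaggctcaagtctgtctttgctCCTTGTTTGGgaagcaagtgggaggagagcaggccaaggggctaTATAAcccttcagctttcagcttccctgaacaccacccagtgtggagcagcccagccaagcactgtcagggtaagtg
The COL8A2 window is 82.0% G and C, against a median of 58.7% over 35116 promoters, and holds 8 GC boxes, overlapping matches counted, a number reached by 0.812% of promoters. At least 1 GC box stands in 45.0% of promoters. The SPARC window held none of the motifs. The downstream ACTA2 window held 2 CArG boxes with 1 base off, CCCTATATGG from position -121 and CCTTGTTTGG from position -71, and a TATAA at -27, counted from the start site. At least 2 such CArG boxes stand in 0.686% of promoters, at least 1 in 8.13%, and TATAA in 20.4%. The upstream ACTA2 window held no CArG box, 2 GC boxes and a TATAA at -187. The abundances do not say which ACTA2 start was used, and a match of letters is not evidence that a factor binds there.

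Values are TPM, transcript abundances scaled by length and by library, so levels can be compared between genes. The read depth behind them is unknown, so no interval for counting error is given. For COL8A2 and SPARC the same values stood in 2 lines under the gene's own symbol. For COL1A2 and ACTA2 the symbol rests on the order of the OCI-AML3 clone 1 replicates in 2 lines with different symbols, which is less direct. The symbols COL1A2, SPARC and ACTA2 also head 1 further line each, with other values that could not be tied to a gene. As a check of the labels, CASP2 stood at 3.50 ± 0.470 TPM in OCI-AML2 clone 1, 4.45 ± 1.03 TPM in OCI-AML2 clone 2 and 36.1 ± 1.07 TPM in OCI-AML2 parental cells (SD, n = 3 each). In OCI-AML3 it stood at 27.1 ± 0.745 TPM in clone 1, 32.1 ± 2.92 TPM in clone 2 and 28.7 ± 1.18 TPM in parental cells, so the mRNA gives no check of the OCI-AML3 labels.

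COL8A2 was higher in both clones of OCI-AML3 and lower in both clones of OCI-AML2 than in their parental cells. Its values were 25.26, 26.87 and 24.55 TPM in OCI-AML3 clone 1 and 23.6, 23.7 and 23.32 TPM in OCI-AML3 clone 2, against 0.28, 0.05 and 0.17 TPM in OCI-AML3 parental cells. Every clone library was far above every parental library, a 153-fold ratio of mean TPM in clone 1 and 141-fold in clone 2, each against a parental mean of 0.167 TPM. At so low a parental level these ratios are loose: leaving out 1 library moved them within 114 to 232 and 105 to 214, highest without parental replicate 1. On the log2(TPM + 1) scale, on which changes of low values look smaller, the differences were 4.51 (SE 0.07) and 4.40 (SE 0.07). Bulk libraries such as these cannot tell more cells with a gene from more RNA per cell.

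In OCI-AML2 the same gene was lower in the clones. COL8A2 values were 25.23, 25.13 and 23.55 TPM in OCI-AML2 clone 1 and 14.57, 14.29 and 15 TPM in OCI-AML2 clone 2, against 50.57, 47.96 and 53.99 TPM in OCI-AML2 parental cells. No clone library overlapped the parental ones, and the mean was 48.5% of the parental mean in clone 1 and 28.8% in clone 2 (log2 differences -1.01 and -1.73, SE 0.07 each). OCI-AML3 parental cells had 0.328% of the level of OCI-AML2 parental cells, or 0.216% without OCI-AML3 parental replicate 1. All clone libraries of both lines lay between 14.29 and 26.87 TPM. Ranked by mean, OCI-AML2 parental cells came first, then OCI-AML3 clone 1, OCI-AML2 clone 1 and OCI-AML3 clone 2, whose neighbouring ranges overlapped, then OCI-AML2 clone 2 and last OCI-AML3 parental cells.

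COL1A2, whose product pairs with that of COL1A1 in type I collagen, was seen at low levels and almost entirely in the OCI-AML3 clones. Libraries of OCI-AML3 clone 1 had 2.85, 3.91 and 3.05 TPM and those of OCI-AML3 clone 2 had 2.17, 1.85 and 1.83 TPM, against 0.1, 0.25 and 0.06 TPM in OCI-AML3 parental cells. All clone libraries were above all parental libraries, by 23.9-fold and 14.3-fold in mean TPM (log2 differences 1.90 and 1.38, SE 0.08 each). Without parental replicate 2, the library at 0.25 TPM, the ratios were 40.9 and 24.4. In OCI-AML2 it was listed at 0 in 8 of 9 libraries and at 0.02 TPM in 1 library of clone 2. COL1A2 reached 1 TPM in 6 libraries, all of them OCI-AML3 clone libraries, so it entered the tested set only through the groups where it was high.

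SPARC divided the cell lines. OCI-AML2 clone 1 had 62.55, 62.44 and 56.01 TPM and OCI-AML2 clone 2 had 50.54, 55.85 and 54.22 TPM, against 29.05, 29.68 and 27.97 TPM in OCI-AML2 parental cells. All clone libraries were above the parental range, 2.09-fold in clone 1 and 1.85-fold in clone 2 (log2 differences 1.03 and 0.87, SE 0.09 each). In OCI-AML3 no library reached 1 TPM: the values were 0.6, 0.33 and 0.23 TPM in clone 1 and 0.34, 0.38 and 0.33 TPM in clone 2, against 0.03, 0 and 0 TPM in parental cells. The clone libraries lay above the parental ones there too, but at a level where no fold is given, and the log2 differences were 0.45 and 0.42 (SE 0.09 each). Between the parental lines the log2 difference was -4.89 (SE 0.09), with means of 0.01 TPM in OCI-AML3 and 28.9 TPM in OCI-AML2. SPARC passed the minimum only through the 9 OCI-AML2 libraries. RefSeq places the noncoding gene CLMAT3 over it on the opposite strand.

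ACTA2 had the reverse division and was the gene of the 4 with the highest level in any group. OCI-AML3 clone 1 had 40.87, 40.11 and 39.98 TPM and OCI-AML3 clone 2 had 47.41, 46.87 and 44.27 TPM, against 102.41, 107.09 and 107.34 TPM in OCI-AML3 parental cells. All clone libraries lay below the parental range, at 38.2% and 43.7% of the parental mean (log2 differences -1.37 and -1.18, SE 0.09 each).

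In OCI-AML2 the ACTA2 clones differed from each other. Values were 11.03, 11.99 and 9.93 TPM in OCI-AML2 clone 1 and 3.98, 4.43 and 4.08 TPM in OCI-AML2 clone 2, against 4.11, 2.91 and 3.72 TPM in OCI-AML2 parental cells. Clone 1 was above the parental range, 3.07-fold in mean TPM (log2 difference 1.39, SE 0.09), while clone 2 overlapped it (log2 difference 0.18, SE 0.09). OCI-AML3 parental cells had 29.5 times the level of OCI-AML2 parental cells (log2 difference 4.55, SE 0.09). The ACTA2 gene overlaps FAS, on the opposite strand, and the antisense gene ACTA2-AS1 in RefSeq, and its coding sequence is very close to those of the other muscle actins. No source used here says whether reads were counted by strand or how reads shared between actins were treated, so reads of these genes cannot be told apart and part of the ACTA2 level is uncertain. The same holds for SPARC and CLMAT3.

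**Figure D1:**
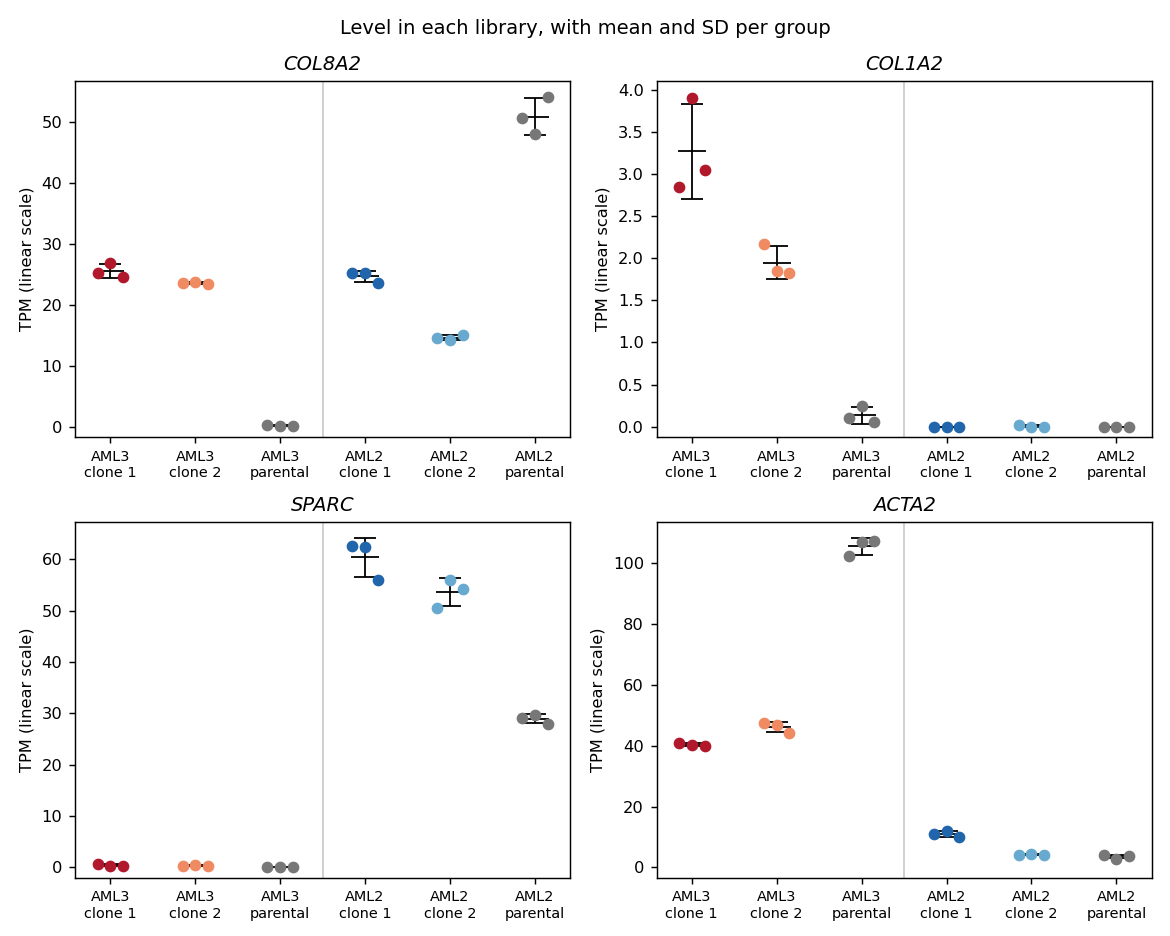
TPM (linear axis from 0) of COL8A2, COL1A2, SPARC and ACTA2 in each of 18 libraries, with the mean (horizontal line) and SD (bars) per group of 3. COL8A2 lay between 23.32 and 26.87 TPM in the OCI-AML3 clones against at most 0.28 TPM in OCI-AML3 parental cells, and SPARC was at least 27.97 TPM in all 9 OCI-AML2 libraries and at most 0.6 TPM in OCI-AML3.

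**Figure D2:**
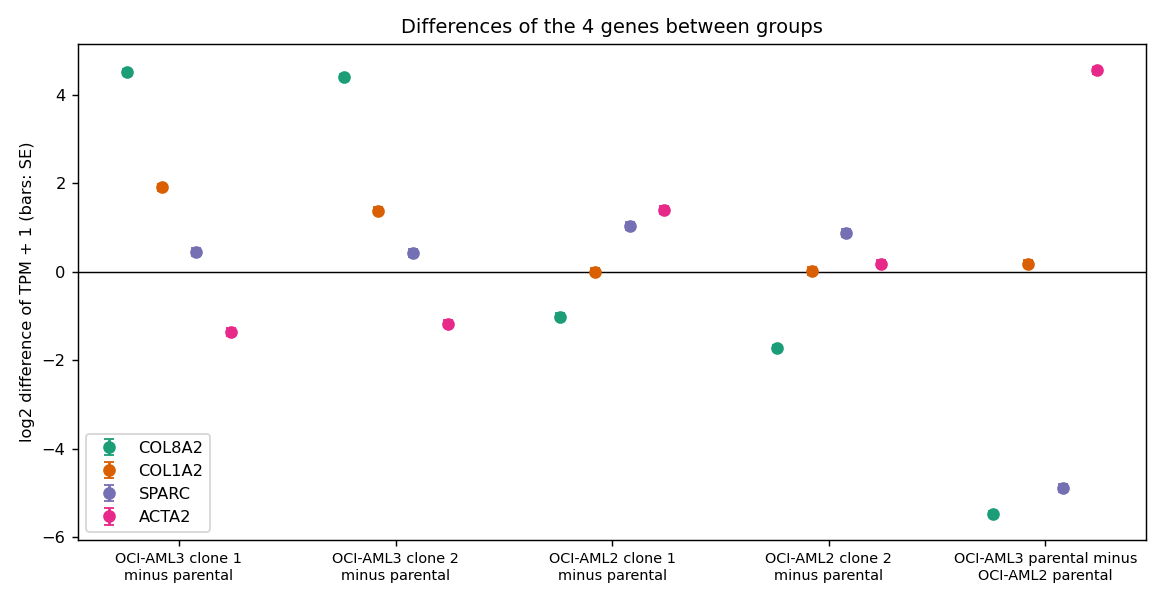
Difference of group means on the log2(TPM + 1) scale for the 4 genes in 5 comparisons, with bars of 1 SE that are mostly hidden by the points. COL8A2 was positive in both OCI-AML3 clones (4.51 and 4.40) and negative in both OCI-AML2 clones (-1.01 and -1.73), while ACTA2 was negative in both OCI-AML3 clones and positive in OCI-AML2 clone 1.

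Between the clones of OCI-AML3, limma called 3.94% of all tested sets higher in clone 2 than in clone 1 and 2.88% lower, and for the 4 genes only the size of the difference is given. COL1A2 averaged 1.95 ± 0.191 TPM in clone 2 and 3.27 ± 0.563 TPM in clone 1 (SD, n = 3 each), a log2 difference of -0.53 (SE 0.08), and its libraries did not overlap. The log2 difference between clone 2 and clone 1 was -0.11 (SE 0.07) for COL8A2 and 0.19 (SE 0.09) for ACTA2, whose libraries did not overlap either. For SPARC the difference was -0.03 (SE 0.09), and its libraries did overlap. The share of all tested sets without overlap was not computed, so these overlaps are a description only.

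In OCI-AML2, 29.9% of all tested sets were called higher in clone 2 than in clone 1 and 29.0% lower. COL8A2 averaged 14.6 ± 0.358 TPM in clone 2 and 24.6 ± 0.942 TPM in clone 1 (log2 difference -0.71, SE 0.07). ACTA2 averaged 4.16 ± 0.236 TPM in clone 2 and 10.98 ± 1.03 TPM in clone 1 (log2 difference -1.21, SE 0.09). SPARC had a log2 difference of -0.17 (SE 0.09). The libraries of clone 2 lay below those of clone 1 for all 3 of these genes, without overlap, while COL1A2 was at or near 0 in both clones. How many of all tested sets had no overlap was not computed here either, so this count says little about the genes.

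The 4 genes did not follow a common profile. Across the 18 libraries, which share the cell line and the clone as sources of variation, Pearson's r of log2(TPM + 1) was -0.92 between SPARC and ACTA2, -0.70 between COL1A2 and SPARC, -0.65 between COL8A2 and ACTA2, 0.53 between COL1A2 and ACTA2, 0.47 between COL8A2 and SPARC and 0.21 between COL8A2 and COL1A2. The tested genes whose profile was most like that of COL8A2 over the same libraries were GOLGA8A (r = 0.988), HVCN1 (0.981), a voltage-gated proton channel, and RTL8B (0.979). Those most like COL1A2 were MYZAP (0.991), AIM2 (0.989), a sensor of cytosolic DNA, and CNTN4 (0.986). SPARC was followed most closely by GABRR1 (0.997), a GABA receptor subunit, GAPT (0.994) and NCALD (0.994), a neuronal calcium sensor. ACTA2 was followed by OPTN (0.991), an autophagy receptor, FGFR4 (0.983), a fibroblast growth factor receptor, and RPS6KA2 (0.983), a ribosomal S6 kinase. None of these 12 genes stands in the matrix and contractile lists described next. Only the 2087 tested sets with a settled symbol were searched, and 45 of those are list genes, the 4 genes included. With so small a share the absence says little.

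The other genes of the matrix and contractile systems were taken from 7 lists of 263 genes in all, of which 105 were printed in the table, 56 could be tied to their values and 45 were tested, including the 4 genes. They come from the same selected table, and the lists were drawn up with earlier results known, so their counts are no independent evidence of a direction and no p-values are given for them. In OCI-AML3 a gene was called where clone 1 and clone 2 each passed in limma on log2(TPM + 1) (Benjamini-Hochberg adjusted p under 0.05 over 4413 tested sets), both higher or both lower than parental cells, which 28.7% of all sets did as higher and 38.3% as lower. Of the 41 other list genes tested, 20 were higher and 18 lower in the OCI-AML3 clones. In OCI-AML2, where 23.8% of all sets were higher and 14.6% lower in both clones, 10 of the 41 were higher and 9 lower. With a minimum of 5 TPM the counts were 14 higher and 10 lower in OCI-AML3 and 2 higher in OCI-AML2, and with all symbols taken as printed they were 34, 28 and 21. Between the parental lines, where 47.2% of all sets were higher and 43.4% lower in OCI-AML3, 20 of the 41 were higher and 15 lower in OCI-AML3. The shares of all sets include sets without a settled symbol. A lone line was given a symbol only at a parental log2 ratio under 0.6. Count and share are therefore not on the same footing, least of all between the parental lines. So many of all sets were called that a count within a list says little about that list. The median log2 change of the 41 genes was 0.09 in the OCI-AML3 clones, against -0.06 over all tested sets, and 0.01 in the OCI-AML2 clones, against 0.06.

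Of the other collagen chain genes, 5 were tested. COL6A1 and COL6A2, which encode chains of the beaded-filament type VI collagen, rose in the OCI-AML3 clones, as did the transmembrane collagen gene COL23A1. COL6A1 averaged 90.1 ± 3.68 TPM in OCI-AML3 clone 1 and 109 ± 4.93 TPM in clone 2, against 19.1 ± 1.98 TPM in parental cells (mean log2 change 2.32, SE 0.07). COL6A2 averaged 61.9 ± 3.19 and 64.0 ± 4.15 TPM in the OCI-AML3 clones, against 32.1 ± 5.55 TPM in parental cells (log2 change 0.96, SE 0.08). In OCI-AML2, COL6A1 averaged at most 0.13 TPM in any group and COL6A2 was listed at 0 in all 9 libraries.

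COL23A1 averaged 39.1 ± 2.05 and 36.1 ± 1.39 TPM in the OCI-AML3 clones, against 15.9 ± 3.74 TPM in parental cells (log2 change 1.21, SE 0.11). COL9A2, a chain of cartilage collagen IX, and COL18A1, a basement membrane collagen and source of endostatin, fell in the OCI-AML3 clones (-1.43, SE 0.11, and -1.32, SE 0.12). COL9A2 averaged 0.663 ± 0.256 and 0.640 ± 0.218 TPM there, against 3.45 ± 0.664 TPM in parental cells. In OCI-AML2, 0 of the 5 were called in both clones by limma, beside 23.8% of all sets called higher and 14.6% lower. With so few genes this count says little about the list. At an unadjusted p under 0.05 it was also 0. With no minimum 1 gene of the list, COL17A1, was called higher. The OCI-AML2 clones differed: COL18A1, COL9A2 and COL23A1 were lower than parental in clone 2 (log2 differences -0.94, -0.97 and -0.83). In clone 1 they were at 0.39, 0.09 and 0.02. COL9A2 averaged 35.0 TPM in clone 1, 16.3 TPM in clone 2 and 32.7 TPM in parental cells. COL17A1 and COL19A1 had a settled symbol but stayed below the minimum of 1 TPM in 3 libraries.

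Among the enzymes of collagen synthesis, ADAMTS2, the procollagen N-proteinase, fell in the OCI-AML3 clones (10.7 ± 0.552 and 10.8 ± 0.188 TPM, against 17.0 ± 0.442 TPM in parental cells), and so did COLGALT2, a collagen galactosyltransferase (0.260 ± 0.0964 and 0.317 ± 0.118 TPM, against 2.26 ± 0.225 TPM). The lysyl oxidase relative LOXL3 did not pass there (log2 change -0.003, SE 0.09) and rose in both OCI-AML2 clones, at 3.01 ± 0.297 and 2.47 ± 0.446 TPM against 1.19 ± 0.101 TPM in parental cells. These 3 were all that could be tested of 29 genes in the list.

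Of 11 matrix glycoprotein and proteoglycan genes tested beside SPARC, 6 rose and 5 fell in the OCI-AML3 clones, and 4 fell in both OCI-AML2 clones. Of all sets, 28.7% rose and 38.3% fell in the OCI-AML3 clones, and 14.6% fell in the OCI-AML2 clones. SPOCK1, a proteoglycan with a SPARC-like domain, averaged 6.62 ± 0.465 and 8.01 ± 0.549 TPM in the OCI-AML3 clones, against 0.603 ± 0.164 TPM in parental cells (log2 change 2.37, SE 0.09). Its relative SPOCK2 rose as well (0.66, SE 0.09). In OCI-AML2 both fell (-0.66 and -0.53, SE 0.09 each), whereas SPARC itself was higher in the OCI-AML2 clones.

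TGFBI, a collagen-binding adhesion protein induced by TGF-beta, averaged 25.9 ± 1.63 and 29.5 ± 1.37 TPM in the OCI-AML3 clones, against 4.26 ± 0.0833 TPM in parental cells. In OCI-AML2 it averaged 20.3 ± 1.06 and 5.55 ± 0.719 TPM in clone 1 and clone 2, against 53.9 ± 2.00 TPM in parental cells. The log2 changes of TGFBI were 2.45 and -2.22 (SE 0.07 each). HSPG2, the basement membrane proteoglycan perlecan, likewise rose in the OCI-AML3 clones (1.38, SE 0.08) and fell in the OCI-AML2 clones (-1.03, SE 0.08). Among the falls in OCI-AML3 were EMILIN2 (-1.74, SE 0.07), MFAP2, a microfibril protein (-1.23, SE 0.06), and EFEMP2, a fibulin needed for elastic fibres (-1.20, SE 0.10). TGFBI, HSPG2, SPOCK1 and SPOCK2 thus had the same pair of directions as COL8A2, and like it were lower in OCI-AML3 parental than in OCI-AML2 parental cells (log2 differences -3.38, -1.85, -0.71 and -0.39). Among named genes of other lists, LAIR1, MMP25 and ADAMTS5 shared both traits (-0.474, -5.029 and -0.494). MMP2 had the same pair of directions but was higher in OCI-AML3 parental cells (3.425). Parental means enter both the clone changes and the parental difference, so these are not independent. Some of these genes were low: SPOCK2 averaged at most 1.78 TPM and ADAMTS5 at most 1.94 TPM in any group. SPOCK1 averaged at most 1.64 TPM in any OCI-AML2 group. The share of all tested sets with the same traits was not computed.

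Of 8 matrix protease genes tested, 6 rose and 2 fell in the OCI-AML3 clones, and 2 rose and 3 fell in the OCI-AML2 clones, beside 28.7%, 38.3%, 23.8% and 14.6% of all sets. MMP2, gelatinase A, averaged 374 ± 5.59 and 425 ± 32.4 TPM in the OCI-AML3 clones, against 112 ± 8.79 TPM in parental cells (log2 change 1.83, SE 0.09). In OCI-AML2 it fell, to 0.900 ± 0.0917 TPM in clone 1 and 2.42 ± 0.554 TPM in clone 2, against 9.48 ± 0.783 TPM in parental cells (-2.04, SE 0.09). MMP9, gelatinase B of neutrophils, rose in both lines (1.83 in OCI-AML3 and 1.84 in OCI-AML2, SE 0.10 each). It averaged 16.6 and 22.7 TPM in the OCI-AML3 clones against 4.79 TPM in parental cells. In OCI-AML2 it averaged 3.42 and 2.31 TPM in the clones against 0.0633 TPM in parental cells. From so low a level the log2(TPM + 1) change understates the ratio of TPM, so the near-equal values are not equal folds. MMP25, a membrane-bound leukocyte protease, rose in OCI-AML3 (0.61, SE 0.10) and fell in OCI-AML2 (-1.29, SE 0.10). MMP15, another membrane-bound enzyme, fell to 1.16 ± 0.119 and 1.80 ± 0.0954 TPM in the OCI-AML3 clones, against 3.95 ± 0.598 TPM in parental cells, and rose in OCI-AML2 (1.87, SE 0.10). MMP11, a stromelysin, fell in OCI-AML3 (-1.54, SE 0.13). The proteoglycan-cleaving ADAMTS1 and ADAMTS5 rose in OCI-AML3 (0.89 and 0.56, SE 0.06 each), and ADAMTS5 fell in OCI-AML2 (-0.51, SE 0.06).

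Among receptors for collagen and matrix, 3 of 5 rose and 1 fell in the OCI-AML3 clones, beside 28.7% and 38.3% of all sets. In the OCI-AML2 clones 1 rose and 2 fell, beside 23.8% and 14.6% of all sets. LAIR1, an inhibitory collagen receptor of leukocytes, averaged 244 ± 5.48 and 287 ± 2.52 TPM in the OCI-AML3 clones, against 116 ± 7.79 TPM in parental cells (log2 change 1.19, SE 0.07). In the OCI-AML2 clones LAIR1 fell to 83.0 ± 6.53 and 83.3 ± 7.77 TPM, against 162 ± 9.07 TPM in parental cells (-0.95, SE 0.07). CD36, which binds thrombospondin and oxidised lipids, and the integrin chain gene ITGB5 rose in the OCI-AML3 clones (4.19, SE 0.10, and 1.55, SE 0.08), ITGB5 also in OCI-AML2 (0.32, SE 0.08). The OCI-AML2 call of ITGB5 was lost with separate fits per line and without parental replicate 1, parental replicate 3, clone 2 replicate 2 or clone 2 replicate 3. The laminin-binding integrin gene ITGA7 fell in the OCI-AML3 clones (-1.33, SE 0.09). OSCAR, an activating receptor for collagen on myeloid cells, did not pass in OCI-AML3 (0.09, SE 0.09) and fell in OCI-AML2 (-2.96, SE 0.09).

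The contractile genes tested beside ACTA2 were FLNA, MYH10, TPM2 and DES, and 3 of the 4 fell in the OCI-AML3 clones while 2 rose in the OCI-AML2 clones. Of all sets, 38.3% fell in the OCI-AML3 clones and 23.8% rose in the OCI-AML2 clones. FLNA, the actin cross-linker filamin A, averaged 123 ± 0.980 and 134 ± 6.19 TPM in the OCI-AML3 clones, against 362 ± 24.7 TPM in parental cells (log2 change -1.49, SE 0.06). In OCI-AML2 it rose, to 91.2 ± 1.11 TPM in clone 1 and 169 ± 15.5 TPM in clone 2, against 77.3 ± 2.78 TPM in parental cells (0.68, SE 0.06), a call that was lost when libraries were rescaled by medians of ratios. ACTA2 was thus lower with FLNA in the OCI-AML3 clones, but in OCI-AML2 the 2 genes were highest in different clones. MYH10, nonmuscle myosin IIB, averaged 0.0800 ± 0.0458 and 0.0433 ± 0.0115 TPM in the OCI-AML3 clones, against 2.97 ± 0.159 TPM in parental cells, and was listed at 0 in OCI-AML2. TPM2, a tropomyosin of muscle, rose in the OCI-AML3 clones (1.01, SE 0.10). DES, the muscle intermediate filament desmin, was listed at 0 in the OCI-AML3 clones against 0.197 ± 0.0808 TPM in parental cells, a call lost without OCI-AML3 parental replicate 1, and rose in OCI-AML2 (1.22, SE 0.07), with 2.42 ± 0.272 TPM in clone 1, 1.26 ± 0.260 TPM in clone 2 and 0.193 ± 0.0814 TPM in parental cells.

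TGF-beta signalling is the best known inducer of type I collagen and ACTA2 in mesenchymal cells. Of its 5 tested genes, 1 rose and 3 fell in the OCI-AML3 clones, beside 28.7% and 38.3% of all sets. In the OCI-AML2 clones 4 rose, beside 23.8% of all sets. BAMBI, a decoy receptor that dampens the signal, rose in both lines (0.69 in OCI-AML3 and 1.13 in OCI-AML2, SE 0.11 each). The ligand gene TGFB3 and the co-receptor gene TGFBR3 fell in the OCI-AML3 clones (-0.52, SE 0.10, and -0.44, SE 0.08), where they averaged under 1 TPM in all 3 groups, and rose in the OCI-AML2 clones (0.50, SE 0.10, and 0.42, SE 0.08). Both OCI-AML2 calls were lost with a pseudocount of 0.1, with rescaling, with separate fits, and without parental replicate 3 or clone 1 replicate 2, which left 2 genes of the list higher there. The TGFB3 call was also lost without parental replicate 1 or clone 1 replicate 1, and the TGFBR3 call without parental replicate 2. LTBP4, which anchors latent TGF-beta in the matrix, fell in OCI-AML3 (-0.83, SE 0.09) and LTBP3 rose in OCI-AML2 (0.82, SE 0.11).

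**Figure D3:**
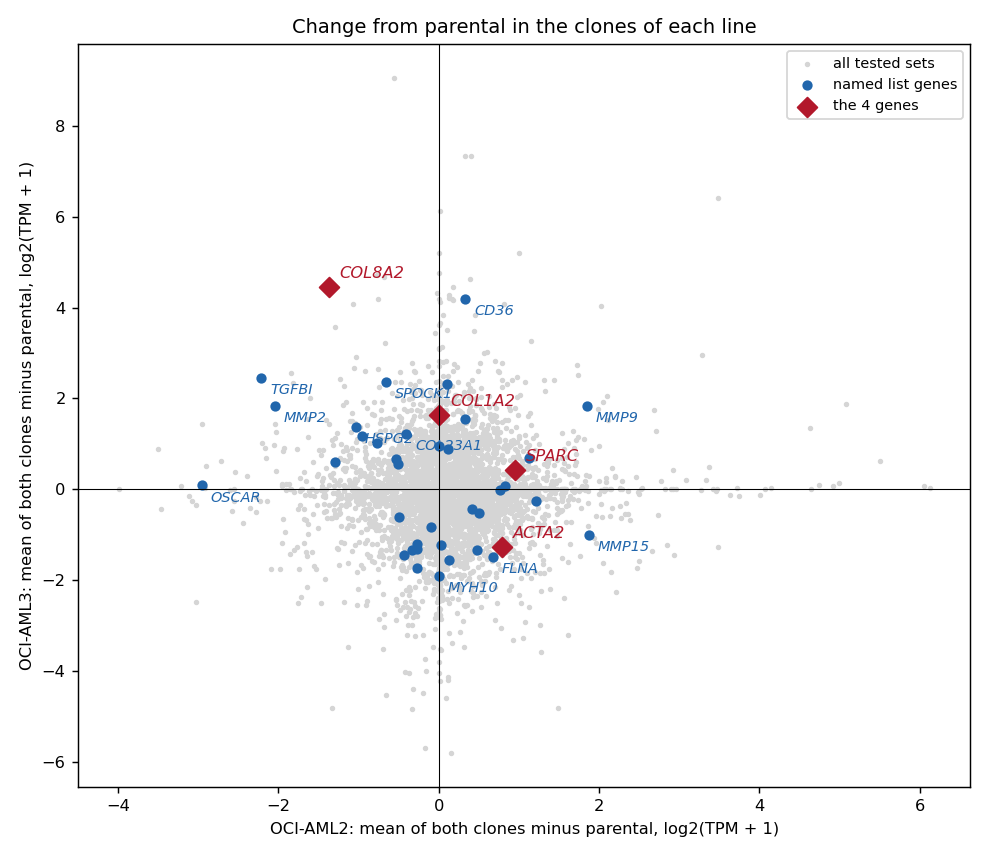
Mean change of both clones from parental cells on the log2(TPM + 1) scale, OCI-AML2 on the horizontal and OCI-AML3 on the vertical axis, for all 4413 tested sets (grey), the named list genes (blue) and the 4 genes (red). COL8A2 (-1.37 and 4.46) stands in the upper left with TGFBI and MMP2, ACTA2 (0.79 and -1.27) in the lower right with FLNA and MMP15. The 0.79 of ACTA2 is the mean of 1.39 in OCI-AML2 clone 1 and 0.18 in clone 2, which overlapped parental cells.

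**Figure D4:**
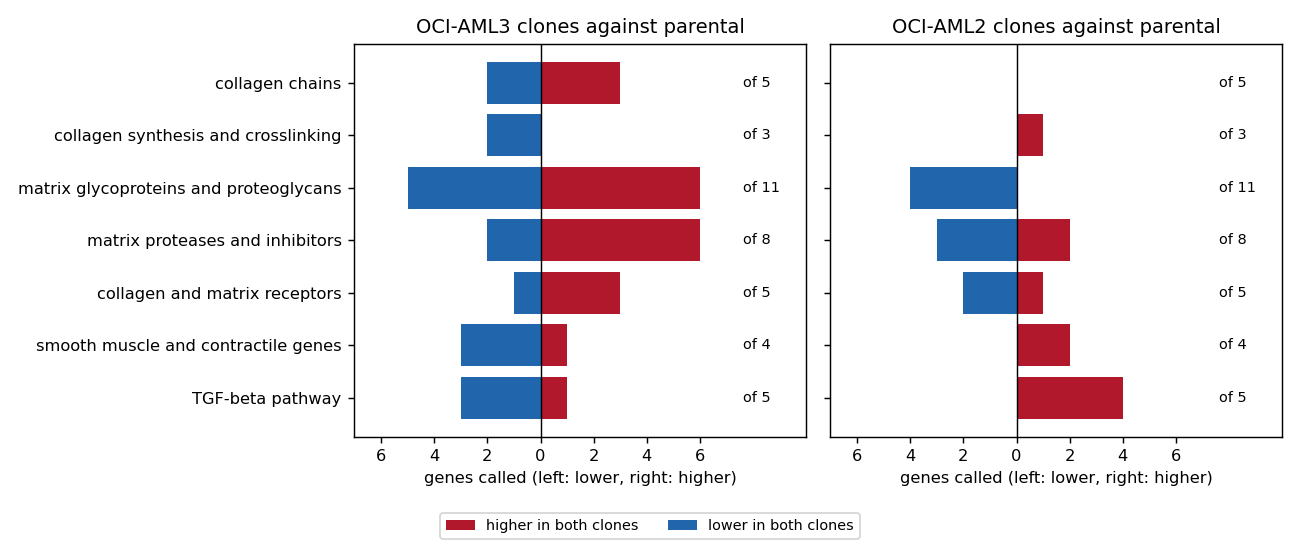
Number of list genes called higher (red, to the right) or lower (blue, to the left) in both clones of a line by limma, without the 4 genes, with the number tested at the right edge. In OCI-AML3 the matrix proteases had 6 higher and 2 lower, and in OCI-AML2 the matrix glycoproteins had 4 lower. Of all tested sets, 28.7% were higher and 38.3% lower in OCI-AML3, and 23.8% higher and 14.6% lower in OCI-AML2.

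Markers of cells that normally make these proteins were looked up beside the results. Of 14 fibroblast and stromal markers 7 were printed in the table and 2 could be tied to their values. Their summed level ran from 7.19 to 10.1 TPM in the OCI-AML3 clones and from 31.9 to 46.3 TPM in OCI-AML3 parental cells, and from 134 to 296 TPM in the OCI-AML2 clones and from 105 to 139 TPM in OCI-AML2 parental cells. Most of that sum was S100A4, which myeloid cells also express, while CXCL12 averaged 1.32 and 1.66 TPM in OCI-AML3 clone 1 and clone 2 and was listed at 0 in the other 4 groups. The megakaryocyte and platelet list of 11 genes had 2 such genes, with sums of 119 to 161 TPM in the OCI-AML3 clones, 49.8 to 67.7 TPM in OCI-AML3 parental cells, 48.6 to 65.9 TPM in the OCI-AML2 clones and 44.9 to 65.7 TPM in OCI-AML2 parental cells. Nearly all of that sum was GP1BB, at 134 and 142 TPM in the OCI-AML3 clones against 55.0 TPM in parental cells. ITGA2B went the other way there, at 0.437 and 0.32 TPM in the clones against 2.82 TPM in parental cells. The endothelial list was represented by TIE1 alone, at most 3.16 TPM in any library, and the epithelial list by CLDN7, at most 7.71 TPM. Of 18 myeloid leukaemia markers 6 could be used, with sums of 3860 to 5230 TPM in the OCI-AML3 clones, 13500 to 15200 TPM in OCI-AML3 parental cells, 3420 to 11400 TPM in the OCI-AML2 clones and 4440 to 5030 TPM in OCI-AML2 parental cells. The azurophil granule genes AZU1, PRTN3 and CTSG averaged at least 666 TPM in every group. The rest of the usable markers were lower. ITGAM averaged at most 1.39 TPM in any group. ANPEP averaged at most 0.43 TPM in any OCI-AML2 group and at least 29.9 TPM in every OCI-AML3 group. CD14 averaged 42.1 and 50.2 TPM in OCI-AML3 clone 1 and clone 2, against 0.813 TPM in parental cells. PRTN3 and CTSG were lower in those clones than in parental cells. The part of other cell types in the results was not tested.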

How the data were processed

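RNA sequencing was done on 18 libraries in 6 groups of 3, named by the titles of the samples. Per the file headers the authors deposited TPM per gene and library. The sources used here do not give the aligner, the counter or the build, and TPM keeps no record of depth. All 18 value columns matched a sample.

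The table has 6999 lines with 4816 symbols but 5069 distinct sets of values, 1319 of them under 2 symbols. Each set was used once. Symbols were taken from repeats of a set (575 sets), from the line reading a, b, c in OCI-AML3 clone 1 where its twin read b, c, a (1076), or from a lone line with a parental log2 ratio under 0.6 (673). Where 2 lines read a, b, c and 1 read b, c, a (194 sets), the 2 bore the same symbol in all 194. The replicate numbers of OCI-AML3 clone 1 are therefore those of the kept line. Values of the distinct sets sum to 170140 to 199403 TPM per library.

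The 4413 sets that reached 1 TPM in 3 or more libraries were fitted by limma (version 3.58.1, R 4.3.3) as log2(TPM + 1), using all 18 libraries, a mean for each group and limma's trend option. Two-sided p-values were adjusted per comparison by the Benjamini-Hochberg method and used for calls among list genes. For the 4 genes no p-value is given, also not between the clones of a line, since the values of all groups were in view when they were chosen. The script was tested on simulated data. The genes and lists were chosen with earlier results of these data known. Named are the 4 genes, CASP2, all collagen chains with a settled symbol, per list up to 5 called genes with the largest change in each line and up to 3 between the parental lines, and per gene the 3 with the most similar profile. Alternatives were the pseudocount, the minimum, rescaling by medians of ratios, separate fits per line, no trend, a replicate block, printed symbols and leaving out each library.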

Additional observations from a re-analysis of the deposited data

Results flagged for a closer look

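COL8A2 was singled out because every clone library lay above the parental range in OCI-AML3 and below it in OCI-AML2. The change in OCI-AML3 minus that in OCI-AML2 was 5.83 on the log2(TPM + 1) scale, and this difference was not tested, since the gene was chosen with it in view.

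In 13 named list genes all clone libraries also lay beyond their parental range in opposite directions in the lines. These differences were not tested either. List genes were named mostly for the size of their called changes, which can raise such a count. The share of all tested sets that meet the criterion was not computed, so the count cannot be compared with a background. More positive in OCI-AML3 were TGFBI (4.67), MMP2 (3.87), SPOCK1 (3.03), HSPG2 (2.41), LAIR1 (2.14), MMP25 (1.90), SPOCK2 (1.19) and ADAMTS5 (1.07). More positive in OCI-AML2 were MMP15 (-2.87), FLNA (-2.16), DES (-1.47), TGFB3 (-1.01) and TGFBR3 (-0.86). ACTA2, SPARC and COL1A2 did not meet this criterion.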

How the results depend on the processing

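Of 665 values recomputed for 26 results under 26 alternatives, 640 were judged the same. Many of them had to be. The size of a difference cannot move with the minimum, the trend option, separate fits, a replicate block or the loss of a library of another group. The 640 is therefore no measure of how firm the results are. Differences between the clones of a line had to keep their direction and their side of the threshold. Other differences had to keep their direction and move by less than the spread between libraries. Counts of list genes had only to be equal or close, as for 7 against 10 higher in the OCI-AML2 clones after rescaling. A pseudocount of 0.1 widened the changes of low genes. In the OCI-AML3 clones they were 6.63 for COL8A2, 3.55 for COL1A2 and 2.06 for SPARC. For ACTA2 the mean of the OCI-AML2 clones, which differed from each other, was 0.91. Between the parental lines the differences were -7.68 for COL8A2, 1.16 for COL1A2, -8.05 for SPARC and 4.86 for ACTA2. With this pseudocount COL1A2 between OCI-AML3 clone 2 and clone 1 was at -0.71. Rescaling by medians of ratios put ACTA2 at -1.13 in the OCI-AML3 clones and 4.43 between the parental lines. Separate fits left the differences of ACTA2 between the OCI-AML3 clones (0.19) and of SPARC between the OCI-AML2 clones (-0.17) as they were and changed their errors. The causes were not tested.

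With a minimum of 5 TPM, which tests fewer genes and leaves COL1A2 out, list genes lower in the OCI-AML3 clones numbered 10, higher in the OCI-AML2 clones 2 and higher in OCI-AML3 than in OCI-AML2 parental cells 11. Among the named list genes, 5 lost a call in at least 1 alternative that still tested them, printed symbols aside, and the losses are given with their values. With symbols as printed, which names more lines, the list genes numbered 34 higher and 28 lower in the OCI-AML3 clones, 21 higher in the OCI-AML2 clones, and 38 higher and 32 lower between the parental lines. Leaving out 1 library moved ACTA2 within 0.68 to 0.87 in the mean of the OCI-AML2 clones and 4.44 to 4.63 between the parental lines. It moved SPARC within -0.11 to 0.08 between OCI-AML3 clone 2 and clone 1. That difference turned to 0.078 without OCI-AML3 clone 1 replicate 1. SPARC between OCI-AML2 clone 2 and clone 1 ran from -0.22 to -0.13. Same-numbered libraries showed little common deviation (r from -0.34 to 0.18 over 21 pairs, 3 of them above 0.1). For sets without a twin line the order of the OCI-AML3 clone 1 replicates is not settled. Pairs with that clone, and the replicate block, could therefore miss a pairing there. The block gave the same changes, as it must with equal groups, and the same calls, with 20 list genes higher and 18 lower in the OCI-AML3 clones. The depth is unknown, so values under about 1 TPM, among them SPARC in OCI-AML3, carry an error that cannot be stated.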

Other observations

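The table also prints the symbols COL1A2, SPARC and ACTA2 in 1 further line each, with other values that could not be tied to a gene and entered no comparison of these genes. The further COL1A2 line read 21.09, 23.57 and 20.18 TPM in OCI-AML3 clone 1, 28.53, 28.29 and 23.39 TPM in OCI-AML3 clone 2 and 25.3, 22.37 and 21.89 TPM in OCI-AML3 parental cells. In OCI-AML2 that line read 10.2, 8.73 and 8.37 TPM in clone 1, 0.43, 0.43 and 0.52 TPM in clone 2 and 8.15, 6.82 and 7.57 TPM in parental cells. The further ACTA2 line lay between 7.89 and 14.49 TPM in all OCI-AML3 libraries. In OCI-AML2 it read 41.41, 45.65 and 49.57 TPM in clone 1, 77.36, 71.36 and 64.4 TPM in clone 2 and 29.76, 36.89 and 34.86 TPM in parental cells. The further SPARC line was listed at 0 in the OCI-AML3 libraries and did not exceed 0.22 TPM in OCI-AML2. The values reported for the 4 genes also stood under IL23R (COL8A2), SIX5 (COL1A2), ZFYVE9 (SPARC) and ANTXR1 (ACTA2) with the OCI-AML3 clone 1 values in the other order.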
